A study of Homo sapiens with 8 samples.

Results

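The KMT2 methyltransferases and their COMPASS partners were followed as 10 genes in RNA-seq of SW1990, an established human pancreatic adenocarcinoma cell line. The members were taken by symbol from the 38637 genes of the deposited table: the 4 methyltransferases KMT2A, KMT2B, KMT2C and KMT2D, the shared core subunits WDR5, ASH2L and RBBP5, and KDM6A, PAXIP1 and NCOA6, which belong to the complexes of KMT2C and KMT2D. The rule takes them by symbol and uses no threshold on a measured value, although earlier results of these data were known when it was set, and all 10 had enough counts to be tested in each comparison. The 8 libraries form 4 groups of 2: SW1990 cells with an empty vector (Vector 2 and 3), cells overexpressing the transcription factor EBF2 (EBF2-OE 2 and 3), vehicle-treated cells (Vehicle 1 and 2) and cells treated with GSK-LSD1, an inhibitor of the histone demethylase KDM1A (GSK-LSD1 1 and 2, labelled 2000 µM). That dose is higher than the doses the study describes for its other experiments with this compound, and whether the label is right could not be checked here. All groups share the parental line and none carries a labelled change in a KMT2 gene. The labels give neither treatment times nor whether the overexpressing cells are 1 clone, and nothing in them says that the libraries of a group came from separate cultures, so the p-values measure the spread between these libraries, which may be technical.

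COMPASS complexes write methyl groups on lysine 4 of histone H3. KMT2A and KMT2B, the homologues of Drosophila Trithorax, act mainly at promoters, whereas KMT2C and KMT2D deposit the monomethyl mark, H3K4me1, at enhancers. A SET domain alone is a weak enzyme, and the core of WDR5, RBBP5, ASH2L and DPY30 brings it to full activity. Around KMT2C and KMT2D sit KDM6A, which removes methyl groups from lysine 27 of histone H3, the BRCT-domain adaptor PAXIP1, and the nuclear receptor coactivator NCOA6. KMT2C, KMT2D and KDM6A are among the chromatin genes recurrently mutated in pancreatic carcinoma. The study asked how H3K4me1, its writer KMT2D, and EBF2, which binds the mark, act in pancreatic cancer cells, and the libraries show the transcripts of the writers when EBF2 is raised or an eraser is inhibited.

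The libraries held 20453362 to 27054876 counts on genes, and the 2 libraries of each group differed by more than counting error. The chi-square per degree of freedom was 27.9 in Vector and 36.1 in EBF2-OE, against 6.70 in Vehicle and 5.70 in GSK-LSD1. With this larger spread in the EBF2-OE arm, the numbers of genes passing in the treatment comparisons do not compare the sizes of their effects. EBF2 itself had 28 counts in each Vector library, rising to 5818 and 90100 in EBF2-OE 2 and 3, so both overexpressing libraries held far more of it, at very unequal levels. Of 8 ductal epithelial markers, KRT7, KRT8, KRT18, MUC1 and ELF3 lay at or above 122 TPM in each library, while KRT19, EPCAM and CDH1 reached at most 1.57, 1.42 and 1.12 TPM. TPM is the count divided by gene length and scaled to a common library total. Among markers of other cells, the leukocyte gene PTPRC reached at most 0.122 TPM, CD68 lay between 10.9 and 30.9 TPM, the fibroblast genes COL1A1 between 30.5 and 45.2 TPM and COL1A2 between 6.56 and 10.2 TPM with DCN and LUM at most at 1.11 and 0.427 TPM, the 3 endothelial markers summed to 0.503 to 5.02 TPM, and the 4 acinar and islet markers summed to at most 0.0843 TPM. The part of these genes in the results was not tested. In bulk RNA, fewer expressing cells and less RNA per cell cannot be told apart.

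The 4 methyltransferases are encoded by very long transcripts. On hg38, the deposited table places KMT2A on chromosome 11 from 118436492 to 118526832, KMT2B on chromosome 19 from 35717818 to 35738878, KMT2C on chromosome 7 from 152134925 to 152436642 and KMT2D on chromosome 12 from 49018975 to 49060884, the first pair on the forward strand and the second pair on the reverse strand. In GENCODE v44 the canonical transcript of KMT2D has 55 exons and 5537 codons, that of KMT2C 59 exons and 4911 codons, that of KMT2A 36 exons and 3972 codons, and that of KMT2B 37 exons and 2715 codons. At the other end, WDR5 is a propeller protein of 334 codons, RBBP5 has 538 codons and ASH2L has 628. The length listed for counting ran from 3847 nt for ASH2L to 20785 nt for KMT2D, so levels are compared between members only in TPM.

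Of the 250 bases before the start site, stretches of 160 and 214 bases are shown for KMT2D, which differed between the control groups as described further on, and for KMT2A, which did not pass there. RefSeq promoter sequences of GRCh38.p14 covered 7 of the 10 members, without PAXIP1, NCOA6 and ASH2L. The stretches printed for KMT2A and KMT2D lie before the first GENCODE exon and outside the gene as the table lists it, at chr11:118436242-118436455 on the forward strand and chr12:49060885-49061044 on the reverse strand. Capitals mark GC boxes, the letters GGGCGG or their reverse complement.
KMT2A: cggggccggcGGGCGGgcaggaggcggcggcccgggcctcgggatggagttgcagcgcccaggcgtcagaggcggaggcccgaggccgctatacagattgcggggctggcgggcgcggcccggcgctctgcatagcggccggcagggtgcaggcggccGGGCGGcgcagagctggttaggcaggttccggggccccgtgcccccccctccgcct
KMT2D: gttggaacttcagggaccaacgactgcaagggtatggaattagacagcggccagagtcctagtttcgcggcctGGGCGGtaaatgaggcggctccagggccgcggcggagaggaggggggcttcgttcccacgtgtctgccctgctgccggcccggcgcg
The full windows held 2 GC boxes in KMT2D, 3 in KMT2A, 4 in KMT2B and 15 in KMT2C, some of those in KMT2B and KMT2C overlapping one another, and some lie outside the printed stretches. The KMT2C window lies wholly inside the gene as listed, and most of the KMT2B window does, so neither is printed.

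The 4 methyltransferase windows were CpG-rich, with 31 CpG in KMT2A, 40 in KMT2B, 48 in KMT2C and 23 in KMT2D, against a median of 11 over 35116 promoters of the same length. Their G and C content was 78.4%, 84.4%, 92.0% and 65.6% in the same order, against a median of 58.0%. The windows of the core subunits were poorer, with 2 CpG in WDR5 and 12 in RBBP5, and KDM6A had 27. GC boxes occur in 42.6% of all promoters. Searched on both strands, the EBF-type letters TCCCNNGGG, found in 7.84% of promoters, and the TATA letters TATAAA, found in 10.7%, matched in none of the 7 member windows. CCAAT, present in 32.0% of promoters, matched in KDM6A and WDR5, and CACGTG, present in 6.34%, matched once each in KMT2D and KDM6A. These are matches of letters and say nothing of binding.

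Among the members, WDR5, the WD-repeat scaffold of the core, had the highest level in each group, and ASH2L, which activates the enzyme together with RBBP5, came next. In Vector the mean levels were 97.3 ± 5.38 TPM for WDR5, 41.2 ± 0.0795 for ASH2L and 33.7 ± 0.266 for KMT2D (SD, n = 2), and these 3 did not overlap with each other or with the rest. NCOA6, RBBP5, KMT2B and KMT2A followed with means between 23.6 and 25.4 TPM and overlapping neighbours, and KMT2C, KDM6A and PAXIP1 closed the order with means between 12.8 and 14.4 TPM, again overlapping. In Vehicle the order was different. KMT2B at 20.6 ± 1.06 TPM followed ASH2L, KMT2A at 19.3 ± 0.790 and KMT2D at 19.2 ± 0.195 overlapped, and KMT2C came last at 7.99 ± 0.208 TPM (SD, n = 2 each). Thus KMT2D was the most abundant methyltransferase in Vector and EBF2-OE, while in Vehicle and GSK-LSD1 its libraries overlapped with those of KMT2A or KMT2B.

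The members differed in how far they moved over the 8 libraries. The highest library exceeded the lowest 2.11-fold for KMT2C, 2.06-fold for KMT2D and 1.76-fold for KDM6A. KMT2B, NCOA6, KMT2A and RBBP5 lay between 1.56-fold and 1.69-fold. ASH2L, PAXIP1 and WDR5 spanned 1.22-fold, 1.18-fold and 1.17-fold. The least variable members are thus core subunits and an adaptor, and the most variable are the enhancer methyltransferases and KDM6A.

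EBF2 overexpression was set against the empty vector to ask whether transcripts of the H3K4 writers change when the H3K4me1-binding factor is raised. None of the 10 members passed the test: 0 rose and 0 fell at an adjusted p under 0.05, against 0% and 0% of the 15560 genes tested. At an unadjusted p under 0.05 there were 208 genes and 0 members, and DESeq2 called 7 genes and 0 members. Even EBF2, with a log2 fold change of 10.75 (SE 1.55), had an edgeR adjusted p of 1 between libraries of such unequal levels, and DESeq2 gave it an adjusted p of 6.37e-09.

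KMT2D, the H3K4me1 writer that the study is about, stood at 33.5 and 33.8 TPM in Vector and at 32.5 and 33.8 TPM in EBF2-OE. Its counts were 5405 and 6341 against 5198 and 6010. The groups overlapped, and the log2 fold change was 0.0065 with an SE of 0.113 and a 95% interval from -0.27 to 0.28, which leaves room for a change of -17.0% to 21.5%. KMT2C, its paralogue at enhancers, was at 14.0 and 14.9 TPM in Vector and 11.9 and 14.0 in EBF2-OE, with a log2 fold change of -0.13 (SE 0.141). Leaving out each library in turn moved that value between -0.26 and -0.015. In TPM the higher EBF2-OE library of KMT2C lay just below the lower Vector library. The groups overlapped in the scaled counts used for the test.

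KDM6A, the H3K27 demethylase of the same complexes, had the lowest estimate, at a log2 fold change of -0.26 (SE 0.218, 95% interval -0.79 to 0.27). Its levels were 13.1 and 14.2 TPM in Vector, against 9.04 TPM in the EBF2-OE library numbered 2 and 13.4 TPM in that numbered 3. EBF2-OE 3, the library with the higher EBF2 count, lay inside the Vector range, and EBF2-OE 2 lay below it. Leaving out either EBF2-OE library moved the log2 fold change between -0.58 and -0.00084.

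For the promoter methyltransferases, KMT2A was at 24.7 and 22.4 TPM in Vector against 23.5 and 21.0 in EBF2-OE, and KMT2B at 27.1 and 21.5 against 22.2 and 22.7. Both pairs of groups overlapped. Of the core, WDR5 (log2 fold change -0.08, SE 0.118) and RBBP5 (-0.10, SE 0.128) were the only members whose EBF2-OE libraries both lay below both Vector libraries in CPM, the count per library total after TMM scaling, a pattern shown by 10.8% of all genes, and no member lay wholly above, as did 12.1% of genes. In TPM, by contrast, the WDR5 groups overlapped, and KMT2C and ASH2L lay wholly lower in EBF2-OE beside RBBP5. RBBP5 is a core subunit that joins WDR5 to ASH2L, and its levels were 25.2 and 25.0 TPM in Vector and 24.0 and 21.9 in EBF2-OE. PAXIP1, NCOA6 and ASH2L had log2 fold changes between -0.07 and -0.06. In all, the members had a median of -0.07 beside a median of 0.0035 over all genes. None passed even at an unadjusted p under 0.05, and KMT2A, KMT2B, KMT2D, PAXIP1 and NCOA6 changed sign on leaving out 1 library.

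GSK-LSD1 was set against vehicle to see the writers' transcripts under inhibition of KDM1A, the demethylase that erases mono- and dimethylated H3K4. RBBP5 was higher in GSK-LSD1-treated cells and was the 1 member of 10 that passed, and 0 members fell, while 9.86% of the 16059 genes tested were called higher and 8.87% lower. RBBP5 stood at 16.2 and 17.6 TPM in Vehicle and at 20.5 and 19.3 TPM in GSK-LSD1. Its counts were 684 and 807 against 825 and 744. The groups did not overlap in TPM, and the log2 fold change was 0.27 (SE 0.0792, 95% interval 0.10 to 0.45), a rise of 20.7%, with an edgeR adjusted p of 0.0368. The call was not stable. The adjusted p was 0.107 by DESeq2 and 0.302 in 1 fit over all 8 libraries, within a range of 0.036 to 0.302 over 7 alternatives of which 5 kept the call, and it was 0.140 without Vehicle 1, 0.231 without GSK-LSD1 1 and 0.0658 without GSK-LSD1 2.

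The promoter methyltransferases had the lowest estimates, without passing. KMT2A was at 18.7 and 19.8 TPM in Vehicle and 15.1 and 18.1 in GSK-LSD1, with a log2 fold change of -0.19 (SE 0.0695, adjusted p = 0.0896 by edgeR). KMT2B was at 21.4 and 19.9 TPM in Vehicle and 16.0 and 18.8 in GSK-LSD1, with -0.21 (SE 0.0766, adjusted p = 0.0797 by edgeR). In both genes each treated library was below each vehicle library. KMT2A passed when Vehicle 1 or GSK-LSD1 2 was left out, at adjusted p of 0.00923 and 0.0374, and KMT2B passed without Vehicle 2 at 0.00159. Over the 7 alternatives that keep all libraries, neither gene passed, with adjusted p of 0.0575 to 0.499 for KMT2A and 0.0573 to 0.506 for KMT2B.

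The enhancer methyltransferases did not separate. KMT2D was at 19.1 and 19.4 TPM in Vehicle and at 16.4 and 20.5 TPM in GSK-LSD1, so that the treated libraries lay on either side of the vehicle libraries. The log2 fold change was -0.03 (SE 0.0780, 95% interval -0.20 to 0.15), an interval of -12.9% to 10.6%. KMT2C was at 7.85 and 8.14 TPM in Vehicle and 7.04 and 8.19 in GSK-LSD1, with -0.04 (SE 0.0720), again with treated libraries on both sides. None of their partners passed: KDM6A had 8.79 and 9.23 TPM against 8.08 and 8.67, PAXIP1 12.6 and 12.7 against 12.6 and 13.1, and NCOA6 18.8 and 18.1 against 16.4 and 17.9, with log2 fold changes of -0.07, 0.05 and -0.07.

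In the core, ASH2L was at 39.3 and 44.6 TPM in Vehicle and 36.6 and 37.6 in GSK-LSD1 (log2 fold change -0.14, SE 0.0678, adjusted p = 0.173 by edgeR, or 0.0341 without Vehicle 1), and WDR5 at 93.2 and 92.4 against 87.0 and 91.5 (-0.02, SE 0.0495). In TMM-scaled CPM, 4 members lay wholly lower in GSK-LSD1 (KMT2A, KMT2B, KDM6A and ASH2L) and 2 wholly higher (PAXIP1 and RBBP5), where 30.2% and 30.0% of all genes did so. The pattern depended on the scaling. In TPM, NCOA6 and WDR5 also lay wholly lower, and the PAXIP1 groups overlapped. The median log2 fold change of the members was -0.05, beside -0.0059 over all genes.

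**Figure D1:**
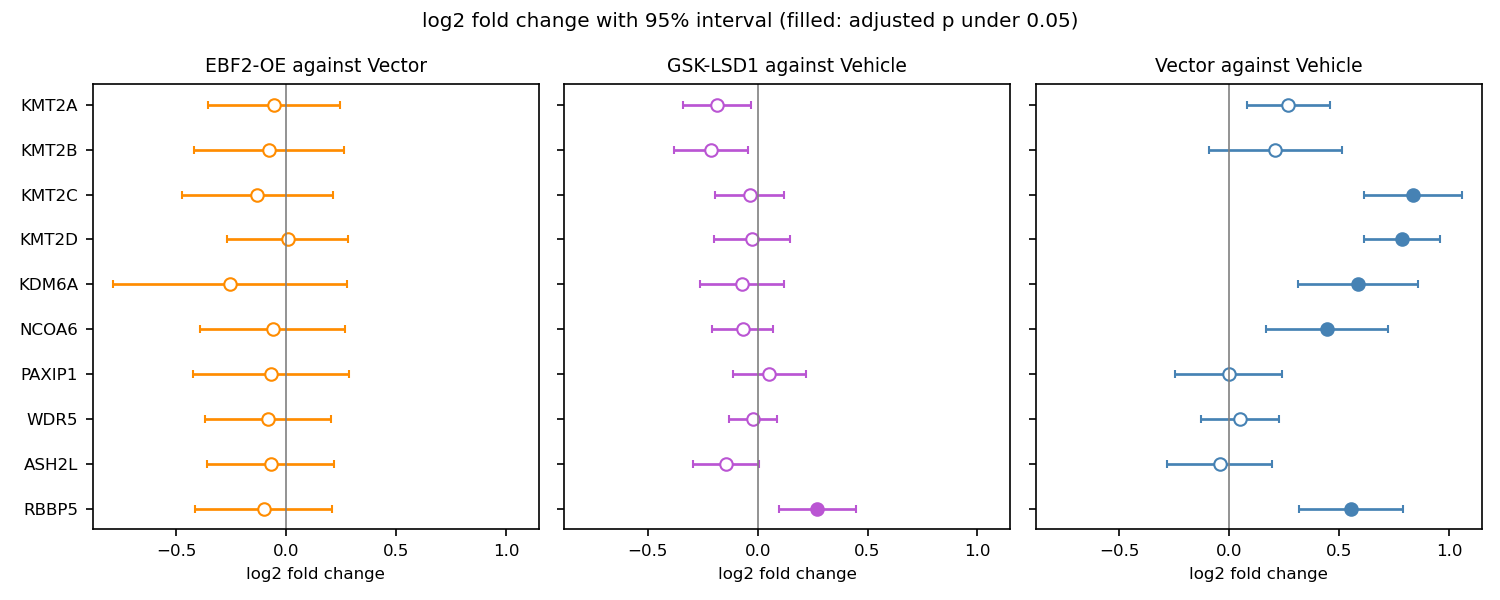
log2 fold change of each member with its 95% interval in the 3 comparisons, each from its own 4 libraries; filled points have an edgeR adjusted p under 0.05. No member is filled for EBF2-OE, RBBP5 is filled for GSK-LSD1, and KMT2C, KMT2D, KDM6A, NCOA6 and RBBP5 are filled for the controls.

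The control groups were compared because each treatment rests on its own control. Vector and Vehicle differ by the empty vector or vehicle of their labels, by library number and by any difference in handling, and these cannot be told apart. The comparison shares its libraries with the comparisons above. KMT2C, KMT2D, KDM6A, NCOA6 and RBBP5 were higher in Vector, so 5 of 10 members passed as higher and 0 as lower, beside 13.6% and 13.2% of the 16019 genes tested. The members' median log2 fold change was 0.36, against 0.0023 over all genes.

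KMT2D was at 33.5 and 33.8 TPM in Vector and at 19.1 and 19.4 TPM in Vehicle, from counts of 5405 and 6341 against 3817 and 4190. The 2 groups were far apart and each was tight. The log2 fold change was 0.79 (SE 0.0695, 95% interval 0.61 to 0.96, edgeR adjusted p = 0.00693), a level 72.7% higher in Vector, at percentile 95.0 of the log2 fold changes of all genes tested. KMT2C was at 14.0 and 14.9 TPM in Vector and at 7.85 and 8.14 in Vehicle, with a log2 fold change of 0.84 (SE 0.0893, 95% interval 0.61 to 1.06, edgeR adjusted p = 0.00810) at percentile 95.7. The enhancer methyltransferases thus differed most between the controls among the members.

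Of their partners, KDM6A was at 13.1 and 14.2 TPM in Vector and 8.79 and 9.23 in Vehicle (log2 fold change 0.59, SE 0.110, edgeR adjusted p = 0.0193). NCOA6, which couples the complex to nuclear receptors, was at 23.6 and 27.1 TPM against 18.8 and 18.1 (0.44, SE 0.111, edgeR adjusted p = 0.0378). PAXIP1 was at 13.3 and 12.3 TPM against 12.6 and 12.7, with a log2 fold change of -0.0026 and a 95% interval from -0.25 to 0.24. Among the complex-specific partners, then, KDM6A and NCOA6 passed and PAXIP1 did not.

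In the core, RBBP5 was at 25.2 and 25.0 TPM in Vector and 16.2 and 17.6 in Vehicle, with a log2 fold change of 0.56 (SE 0.0949, edgeR adjusted p = 0.0159). WDR5 and ASH2L had log2 fold changes of 0.05 (95% interval -0.13 to 0.23) and -0.04 (-0.28 to 0.20) and groups that overlapped in TMM-scaled CPM. The promoter methyltransferases had smaller estimates that did not pass. KMT2A was at 24.7 and 22.4 TPM against 18.7 and 19.8 (0.27, SE 0.0755, edgeR adjusted p = 0.0503) and KMT2B at 27.1 and 21.5 against 21.4 and 19.9 (0.21, SE 0.122, edgeR adjusted p = 0.241). KMT2A passed without Vector 2 (0.0163), without Vector 3 (0.00583) and by limma (0.0467, in a range of 0.0467 to 0.0745 over 6 alternatives), and KMT2B passed without Vector 3 (0.0121). In TMM-scaled CPM, 6 members lay wholly higher in Vector, the 5 that passed and KMT2A, and 0 wholly lower, as against 35.6% and 35.3% of all genes. In TPM, KMT2B and WDR5 also lay wholly higher in Vector, each by a narrow margin.

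These calls rested on both Vehicle libraries. Without Vehicle 1 or without Vehicle 2, 0 members passed, and the adjusted p of KMT2D was 0.0845 and 0.0635 and that of KMT2C 0.0955 and 0.0698, at log2 fold changes of 0.79 and 0.78 for KMT2D and 0.82 and 0.84 for KMT2C. The calls over all genes fell from 4294 to 12 and 235 in the same fits. With a fold change above 1.5 also required, 3 members passed, KMT2C, KMT2D and KDM6A, the last only just past the limit with a level 50.0% higher in Vector.

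Ratios within a library do not depend on its scaling to other libraries. They reuse the levels compared above and are not a separate test. KMT2D over KMT2A, KMT2C over KMT2B and RBBP5 over ASH2L each set a member that passed between the controls over a member that did not. KMT2D over KMT2A in TPM was 1.36 and 1.51 in Vector, 1.39 and 1.61 in EBF2-OE, 1.02 and 0.976 in Vehicle, and 1.09 and 1.14 in GSK-LSD1. The arm with the vector construct lay wholly above the arm of the inhibitor. KMT2C over KMT2B was 0.519 and 0.692 in Vector, 0.534 and 0.615 in EBF2-OE, 0.367 and 0.409 in Vehicle and 0.439 and 0.436 in GSK-LSD1, with the same separation. Enhancer methyltransferases therefore made up 47.9% to 52.6% of the summed KMT2A to KMT2D TPM in Vector and EBF2-OE. Their share was 40.2% and 40.9% in Vehicle and 43.0% and 43.8% in GSK-LSD1. In this share, in KMT2D over KMT2A and in KMT2C over KMT2B, both GSK-LSD1 libraries lay above both Vehicle libraries. As given above, KMT2A and KMT2B lay lower in GSK-LSD1, while KMT2C and KMT2D overlapped. The ratio of KMT2D to KMT2C stayed between 2.28 and 2.74 in all libraries, and that of KMT2A to KMT2B between 0.876 and 1.06. The ratio of RBBP5 to ASH2L was 0.612 and 0.606 in Vector, 0.598 and 0.595 in EBF2-OE, 0.411 and 0.395 in Vehicle, and 0.561 and 0.512 in GSK-LSD1, so that among the groups Vehicle stood apart as the lowest.

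Transcript length moved with the control comparison. The median log2 fold change of Vector against Vehicle was -0.13 for genes listed at under 2000 nt, -0.05 from 2000 to 4000 nt, 0.05 from 4000 to 8000 nt, 0.10 from 8000 to 16000 nt and 0.11 for the 317 genes of 16000 nt or more, with 9.76%, 12.4%, 15.2%, 17.4% and 17.4% of them called higher. KMT2A, KMT2C and KMT2D belong to the last class. Their log2 fold changes of 0.27, 0.84 and 0.79 compare with its median of 0.11, while RBBP5, at 4404 nt, had 0.56 in a class with a median of 0.05. The part of length in these differences was not tested. In the treatment comparisons the class medians lay between -0.0155 and 0.0181.

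The test of EBF2-OE effect minus GSK-LSD1 effect, from 1 fit over all 8 libraries, called 0 members and 0% of 16558 genes. At an unadjusted p under 0.05 there were 1268 genes and 1 member, and DESeq2 called 96 genes and 0 members. That member was RBBP5, with a difference of -0.38 (SE 0.145, 95% interval -0.71 to -0.05) and an edgeR adjusted p of 0.597. The others lay between -0.20 for KDM6A and 0.13 for KMT2B. For KMT2D the difference was 0.02, with a 95% interval from -0.31 to 0.35.

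Around the members, 4 lists of genes of H3K4 methylation and enhancer activation were counted in the same fits. Over all genes, the shares called were 0% in either direction for EBF2-OE, 9.86% higher and 8.87% lower for GSK-LSD1, and 13.6% higher and 13.2% lower in Vector against Vehicle. Of 13 other COMPASS genes, none passed for EBF2-OE, where the largest estimate was HCFC2 at -0.65 (SE 0.310, edgeR adjusted p = 1), which ran from -1.02 to -0.34 on leaving out 1 library. For GSK-LSD1, 0 rose and 3 of 13 fell: SETD1B at -0.33 and SETD1A at -0.25, the methyltransferases responsible for most H3K4 trimethylation, and MEN1 at -0.23, the menin scaffold of the KMT2A and KMT2B complexes, at edgeR adjusted p of 0.00783, 0.0235 and 0.0323. Between the controls, PSIP1, which tethers KMT2A to chromatin, was lower in Vector at -0.36 (edgeR adjusted p = 0.0274) and none was higher. The list's medians were 0.0048, -0.05 and -0.04 in the 3 comparisons. Apart from SETD1A, SETD1B, MEN1 and PSIP1, no gene of the list passed in any of them, PAGR1, DPY30 and WDR82 included. Between the controls WDR82 was at 0.32 (SE 0.100, edgeR adjusted p = 0.0637), DPY30 at 0.03 and PAGR1 at -0.04.

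Of 7 other H3K4 methyltransferases, 4 had enough counts. None passed for EBF2-OE, with SMYD3 highest at 0.09, and none for GSK-LSD1, with SMYD2 at -0.22 (edgeR adjusted p = 0.0968). Between the controls SETD7 was higher in Vector at 0.66 (edgeR adjusted p = 0.0103) and SMYD3 lower at -0.49 (edgeR adjusted p = 0.0340). SETD7 and SMYD3 thus moved in opposite directions between the controls.

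Of the 5 H3K4 demethylases, none passed for EBF2-OE, with KDM1B furthest from 0 at 0.17. For GSK-LSD1 KDM1B, the paralogue of the drug's target, rose by 0.47 on the log2 scale (SE 0.0824, edgeR adjusted p = 0.00339), and KDM5B and KDM1A fell by 0.21 and 0.22 (edgeR adjusted p = 0.0196 and 0.0403). KDM1A itself had mean levels of 168 ± 13.8 TPM in Vehicle and 141 ± 4.27 in GSK-LSD1, and 131 TPM in both Vector and EBF2-OE (SD, n = 2). Between the controls KDM5C and KDM5A were higher in Vector at 0.37 and 0.31 (edgeR adjusted p = 0.0300 and 0.0396), and KDM1A lower at -0.38 (0.0328). In that comparison KDM1A thus went the other way from KMT2C and KMT2D. KDM1B at 0.35 (SE 0.104, edgeR adjusted p = 0.0567) and KDM5B at -0.13 (SE 0.111, edgeR adjusted p = 0.399) did not pass there.

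Of 11 enhancer coactivators, none passed for EBF2-OE, with MED1 furthest at -0.20. For GSK-LSD1, 0 rose and 6 of 11 fell, beside 8.87% lower over all genes, among them CREBBP, a histone acetyltransferase, at -0.34 and MED12, a subunit of Mediator's kinase module, at -0.29 (edgeR adjusted p = 0.00632 and 0.00862). Between the controls, 7 of 11 were higher in Vector, beside 13.6% over all genes, and 0 lower, among them NCOA2, a nuclear receptor coactivator, at 0.62 and MED1, a Mediator subunit, at 0.52 (edgeR adjusted p = 0.0159 and 0.0161). The list's median was 0.43 between the controls and -0.18 for GSK-LSD1. In the fit over all 8 libraries none of the named genes of these lists was called for GSK-LSD1, and without Vehicle 1 or Vehicle 2 none was called between the controls. Without GSK-LSD1 1, KDM1B was the only one of these named genes that passed for GSK-LSD1, and KDM5B, KDM1A and MEN1 were also lost without Vehicle 1 or without GSK-LSD1 2. MEN1 had an adjusted p of 0.0691 by DESeq2, and KDM5A one of 0.0521 between the controls without the low-count filter.

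The pattern of KMT2D over the 8 libraries was compared with that of 14400 other genes of at least 1 TPM, by the root mean square difference of log2 TPM centred on each gene's mean. Outside the members the nearest were ACVR1, a receptor kinase for activins and bone morphogenetic proteins, at 0.0690, VPS9D1-AS1 at 0.0704, DGKH, a diacylglycerol kinase, at 0.0825, C1RL-AS1 at 0.0864 and the zinc finger gene ZNF37A at 0.0923. KMT2C ranked 3 of all genes at 0.0754. The next member, NCOA6, ranked 567, followed by KDM6A at 1265 and KMT2A at 1506, and PAXIP1 was the farthest member at 7173. This is a description over 8 libraries that fall into 4 groups.

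Counting limits touch some members. No strand setting is stated for the counting, and KMT2B overlaps IGFLR1 on the opposite strand, listed at 62 to 176 counts, KMT2D overlaps DDN-AS1 at 25 to 51 counts, and PAXIP1 overlaps PAXIP1-AS2 at 38 to 87 counts. These are small beside the lowest member counts of 1296, 3113 and 555. BAGE2, which holds a copied stretch of KMT2C, was listed at 0 counts in each library. That does not show how reads from the copied stretch were counted.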

How the data were processed

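RNA-seq of 8 SW1990 libraries was analysed. Per the labels, mRNA was enriched by oligo-dT and read as paired ends. The authors mapped to hg38 with HISAT2 and obtained raw counts per gene model from HTSeq, whose strand setting is not given in the sources used here. The authors also deposited TPM, which was checked to equal the count per listed length scaled to the library total. The test was edgeR's quasi-likelihood F-test (version 4.0.16, R 4.3.3) on the whole table, scaled by TMM, with genes kept by filterByExpr at a minimum count of 10. P-values are two-sided with Benjamini-Hochberg adjustment over all genes tested, called under 0.05. EBF2-OE against Vector, GSK-LSD1 against Vehicle and Vector against Vehicle each used their own 4 libraries, and the difference of the 2 effects used all 8. Standard errors come from the test statistic and intervals are at 95%. Levels are deposited TPM as mean ± SD. The depth of 20453362 to 27054876 counts gave each member at least 453 counts in a library.

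The named genes are the members, EBF2, KDM1A, up to 3 called genes per list and comparison with the smallest p (the furthest from 0 where none was called), and the 5 genes most like KMT2D; IGFLR1, DDN-AS1, PAXIP1-AS2 and BAGE2 share sequence or position with members, and DPY30, PAGR1 and WDR82 were named after their values were seen. A gene that this rule also takes is not reported here. Members and lists were chosen with earlier results of these data known. Alternatives were DESeq2 1.42.0, edgeR with DESeq2's size factors, omission of the filter, a stricter one asking 10 counts of each library, limma 3.58.1 (log2 CPM, pseudocount 1), a fold limit of 1.5, unadjusted p-values, 1 fit over all 8 libraries, the replicate number as a block, and leaving out each library. The tests were tried on simulated data. Promoter sequences are RefSeq's for GRCh38.p14, and exons are those of GENCODE v44. Scripts used Python 3.11.15, numpy 2.4.6, pandas 2.3.3 and matplotlib 3.10.9.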

Additional observations from a re-analysis of the deposited data

Results flagged for a closer look

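RBBP5, a core COMPASS subunit, was noted for opposite directions in the arms. Both EBF2-OE libraries lay below both Vector libraries, as did those of 10.8% of all genes. Both GSK-LSD1 libraries lay above both Vehicle libraries, as did those of 30.0% of all genes. The share of all genes with opposite directions in both arms was not counted, so how common the pattern is remains unknown. The log2 fold change of RBBP5 was -0.10 (SE 0.128) in EBF2-OE, which did not pass, and 0.27 (SE 0.0792) in GSK-LSD1. The difference between the effects, EBF2-OE minus GSK-LSD1, was -0.38 on the log2 scale (SE 0.145, unadjusted p = 0.0276, adjusted p = 0.597 by edgeR's quasi-likelihood test over all genes). The test of the difference therefore did not pass after adjustment. Leaving out each library in turn kept the difference between -0.45 and -0.32. RBBP5 was picked by its directions in these same libraries, so the choice itself favoured a large difference that keeps its sign. No cause was tested.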

How the results depend on the processing

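For EBF2-OE against Vector, 0 members passed under each alternative run. For GSK-LSD1 against Vehicle, the 1 member became 0 with DESeq2, 0 with a fold limit of 1.5, 0 in the fit over all 8 libraries and 3 at an unadjusted p, and 0 to 2 on leaving out a library. For Vector against Vehicle, the 5 became 3 with the fold limit and 0 to 7 on leaving out a library, and for the difference of effects 0 became 1 at an unadjusted p. Leaving out a library leaves 1 in its group, which is then assumed to vary like the others.

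Over all genes, the calls were 0 for EBF2-OE but 7 by DESeq2, 75 without the filter, 2 in the fit over all libraries and 1 to 3 on leaving out a library. For GSK-LSD1, 3007 became 1930 by DESeq2, 734 with the fold limit, 117 in the fit over all libraries and 1149 to 3497 on leaving out a library. For the controls, 4294 became 2558 with the fold limit and 12 to 8208 on leaving out a library. For the difference, 0 became 96 by DESeq2, 390 without the filter and 0 to 71 on leaving out a library. Unadjusted, the counts were 208, 5247, 6945 and 1268. The cause was not tested.

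Estimates near 0 changed sign. KMT2D in EBF2-OE was -0.0051 without the filter and -0.00061 in the fit over all libraries, and PAXIP1 between the controls was 0.00098 in that fit. On leaving out a library, EBF2-OE gave -0.13 to 0.016 for KMT2A, -0.21 to 0.078 for KMT2B, -0.030 to 0.041 for KMT2D, -0.15 to 0.0069 for PAXIP1, -0.17 to 0.069 for NCOA6, -0.0014 to 0.17 for SMYD3 and -0.11 to 0.15 for KDM1A. GSK-LSD1 gave -0.13 to 0.054 for KMT2C, -0.17 to 0.11 for KMT2D and -0.047 to 0.0011 for WDR5. The controls gave -0.025 to 0.029 for PAXIP1 and -0.12 to 0.033 for ASH2L.

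The deviations of libraries that share a number correlated at 0.33 in the EBF2-OE arm and -0.06 in the GSK-LSD1 arm over 14205 genes, and with 2 pairs they share only a number. With the replicate block, 0 members passed for EBF2-OE, 1 for GSK-LSD1 (RBBP5, edgeR adjusted p = 0.0499) and 0 for the difference, with 5, 2810 and 34 genes in all. For Vector against Vehicle alone, no paired fit could be made, because these groups share only 1 number.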
